A study of Homo sapiens with 10 samples.

Results

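The serine/arginine-rich (SR) splicing factors bind pre-mRNA through RNA recognition motifs and, through their tails of serine and arginine repeats, help to recruit the spliceosome to exons. The kinase SRPK1 phosphorylates these tails, which allows the proteins to enter the nucleus, and SR proteins are known to adjust the mRNAs of their own family through alternative splicing and alternative 3′ ends. The genes described here are SRSF1, SRSF2, SRSF3, SRSF4, SRSF5, SRSF6, SRSF7, SRSF9, SRSF10 and SRSF11, 10 of the 31015 genes in the deposited tables, chosen by name as substrates of SRPK1. All 10 passed the filters on low counts for nascent and for total RNA.

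The study asked how inhibition of SRPK1, alone and together with inhibition of the transcription elongation kinase CDK12, changes transcription in castration-resistant prostate cancer cells. The 22RV1 line, an established human prostate cancer cell line and the only one analysed, was left untreated or received, for 4 h, SRPIN340 at 20 μM (an SRPK1 inhibitor), Endovion at 50 μM (SCO-101, studied as an SRPK1 inhibitor and structurally distinct from SRPIN340), THZ531 (an inhibitor of CDK12), or THZ531 with Endovion, with 2 libraries in each of the 5 groups. THZ531 was used at 100 nM according to the methods and at 150 nM according to the series description. All cells, controls included, received 4-thiouridine for 10 min, which after alkylation appears as C where the genome has T. A read with a T>C conversion (a T>C read) is taken as RNA made during the label and is here called nascent RNA. All reads together are called total RNA. No library lacked the label, so T>C reads that arise without it were not measured and are not subtracted. The joint treatment with SRPIN340 and THZ531 was not analysed here.

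The libraries held 19315398 to 30047663 reads on genes and 1011591 to 1576102 T>C reads. T>C reads made up 5.66% ± 0.04 of reads in control libraries and 5.11% to 5.43% on average in the treated groups (SD, n = 2 each), and 2 libraries against 2 cannot give an exact permutation p below 1 in 3, which every treatment had. The luminal epithelial gene KRT18 (354 to 484 CPM, reads scaled to a common library size) and the prostate gene HOXB13 (43.5 to 114) were well covered, while the prostate genes KLK3 and TMPRSS2 reached no more than 8.335 and 2.66 CPM. CD3E, a T cell gene, had 0 reads in every library and the leukocyte gene PTPRC at most 6. Of the other genes looked up for other cell types, PECAM1 had at most 1 read. VIM and COL1A1 were detected, at up to 10.25 and 3.27 CPM, above the highest values of KLK3 and TMPRSS2. The labels do not say that the libraries of a group came from separate cultures, so the p-values measure the spread between libraries, which may be technical. All 4 treatments are compared with the same 2 control libraries.

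The reads lie in annotated 3′ UTRs, so the results below are measured at the 3′ ends of the SR genes. The short stretches that follow, from hg38 and written 5′ to 3′ on the strand of the gene, show the ends on which the results turn, with the poly(A) signal AATAAA or ATTAAA in capitals. They come from the last 50 bases of an annotated interval, and were searched on the gene's strand only. SRSF7 has a proximal end (the transcript SRSF7-202) and a distal end (SRSF7-201), SRSF10 an upstream end (SRSF10-203) and a downstream end (SRSF10-204, whose annotated interval stops at its signal), and the SRSF1, SRSF4 and SRSF2 stretches are the ends of the intervals that carry their reads.
SRSF7-202: ttggcacatttaAATAAAatgtttctaact
SRSF7-201: agtttactcaacAATAAAtctgcagagatt
SRSF10-203: caaacatgctatAATAAAaacaaaatgaag
SRSF10-204: ctaggagccaaaAATAAA
SRSF1-205: atgtgttagcaaATTAAAagttcttaaaag
SRSF4-201: ccattaaatttgAATAAAgactatttttgc
SRSF2-203: ttctgtagtttaATTAAAacattttcttgg
The stretches lie at chr2:38744896-38744925 and chr2:38743609-38743638 for SRSF7, chr1:23969084-23969113 and chr1:23964804-23964821 for SRSF10, chr17:58003364-58003393 for SRSF1, chr1:29147752-29147781 for SRSF4 and chr17:76734133-76734162 for SRSF2, all on the minus strand. Of the 13 SR intervals with at least 50 bases and 100 reads that entered the sums per gene, 9 held such a signal, against 73.5% of 15540 such intervals of all genes. A match of these letters is a description of the sequence and no measurement of cleavage.

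SRSF7 was the member called lower in nascent RNA with Endovion and with THZ531 and Endovion together. It carries a zinc knuckle, shuttles between nucleus and cytoplasm, and is known for mRNA export and poly(A) site choice. Its nascent level in scaled counts (CPM, T>C reads scaled to a common library size) was 689 and 658 in the control libraries, 502 and 511 with SRPIN340, 378 and 442 with Endovion, 603 and 738 with THZ531, and 330 and 429 with THZ531 and Endovion. Every library that received SRPIN340 or Endovion lay below both controls, and the THZ531 libraries overlapped the controls.

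By the quasi-likelihood test of edgeR, adjusted after Benjamini and Hochberg over 9946 genes, nascent SRSF7 fell with Endovion (log2 fold change -0.72 ± 0.16 SE, adjusted p = 0.00267). It was 0.563 times its control level with THZ531 and Endovion (log2 -0.83 ± 0.16, adjusted p = 0.000194), and Endovion added to THZ531 lowered it as well (log2 -0.82 ± 0.16, adjusted p = 0.00274). With SRPIN340 the log2 difference was -0.41 ± 0.15 and did not pass the test (adjusted p = 0.25). Between Endovion at 50 μM and SRPIN340 at 20 μM, doses that differ, the log2 difference was -0.30 with a 95% interval of -0.71 to 0.10 (adjusted p = 1), and the interaction of THZ531 and Endovion was -0.10 with an interval of -0.68 to 0.47 (adjusted p = 0.962). Without Endovion replicate 1 the call for Endovion was lost (log2 -0.61, adjusted p = 0.142), and the call of the combination against THZ531 was lost without THZ531 replicate 2 (log2 -0.67, adjusted p = 0.204) or the combination's replicate 1 (log2 -0.65, adjusted p = 0.462).

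SRSF7 was the only member that passed the test in nascent RNA with Endovion, where 0.623% of all genes tested were called lower. With SRPIN340 no member passed (1.04% of all genes called in either direction), and 2 of 10, SRSF2 and SRSF7, had an unadjusted p under 0.05, beside 10.4% of all genes. With THZ531 again none passed (7.46% of all genes called), and 3 of 10 had an unadjusted p under 0.05, beside 21.2% of all genes. The combination had 1 member called higher, SRSF4, and 1 lower, SRSF7, beside 4.61% and 3.49% of all genes. For the combination against THZ531, SRSF7 was the 1 member called lower (0.181% of all genes). No member was called between Endovion and SRPIN340 (0.0603% of all genes), where none had an unadjusted p under 0.05 (3.9% of all genes), nor in the interaction (0.302%), where SRSF5 alone had one (7.7%). In the 4 nascent comparisons without a call by edgeR, DESeq2 called 0 members too. The median log2 difference of the 10 genes was -0.13, -0.15, 0.04 and -0.09 with SRPIN340, Endovion, THZ531 and the combination, against medians between -0.02 and -0.01 over all genes tested.

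**Figure D1:**
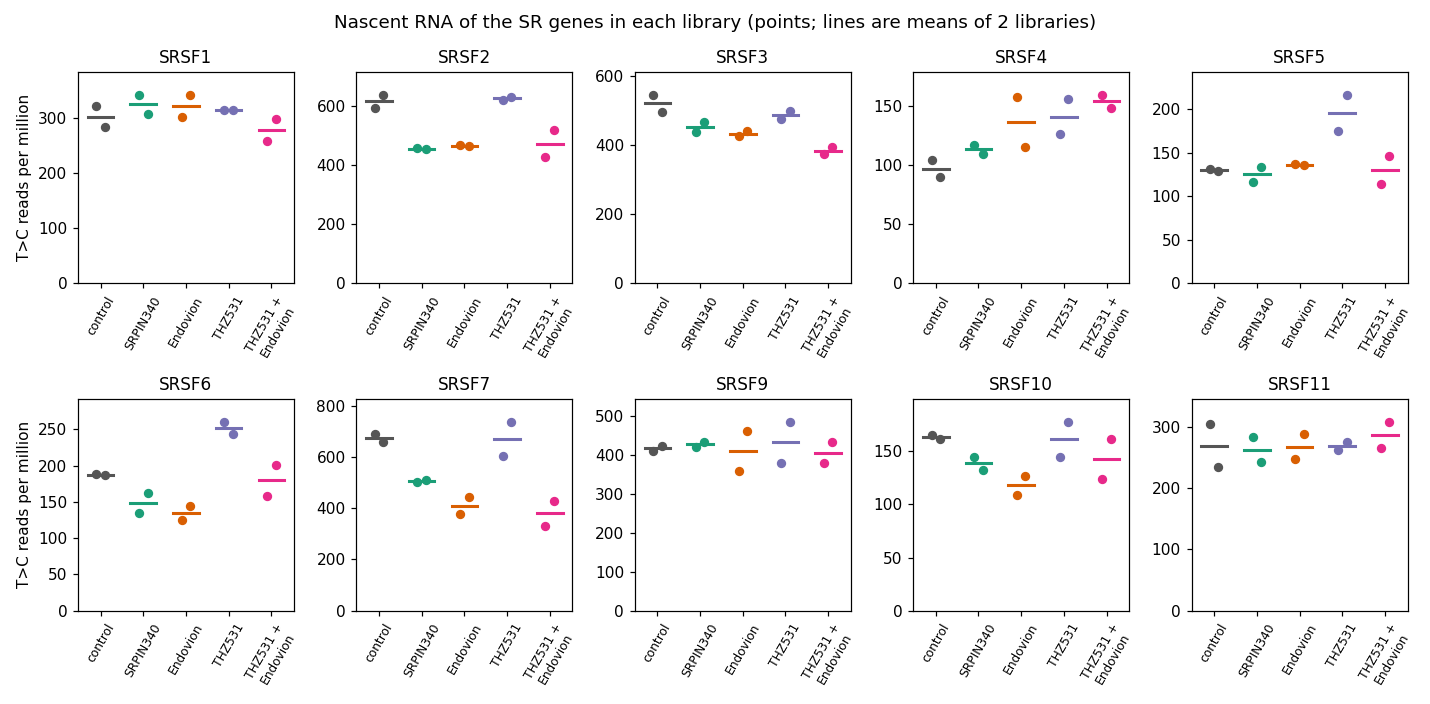
T>C read CPM (TMM-scaled, linear axis from 0) for each SR gene in each of the 10 libraries. Points are libraries and lines the mean of the 2 libraries of a group. SRSF7, SRSF2 and SRSF3 lie below both control libraries wherever SRPIN340 or Endovion was given. SRSF6 and SRSF10 do so with SRPIN340 and with Endovion alone. How many of all genes separate in this way was not counted.

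SRSF2, a nuclear speckle protein also known for a role in releasing paused polymerase, had nascent values of 594 and 640 in the controls, 459 and 455 with SRPIN340, 469 and 466 with Endovion, 622 and 633 with THZ531, and 429 and 519 with the combination. The libraries with SRPIN340 or Endovion did not overlap the controls, and those with THZ531 lay between them. The log2 differences were -0.43 ± 0.15 with SRPIN340 (adjusted p = 0.186), -0.40 ± 0.15 with Endovion (adjusted p = 0.169) and -0.38 ± 0.15 with the combination (adjusted p = 0.111), none past the test. SRSF3, a small shuttling SR protein known for mRNA export, measured 545 and 495 in controls. It measured 438 and 466 with SRPIN340, 427 and 439 with Endovion, and 374 and 393 with the combination. None of these treated libraries overlapped the controls. With the combination the log2 difference was -0.44 ± 0.15 (adjusted p = 0.0608). Among the 4093 genes with at least 50 T>C reads on average, the nascent values most like those of SRSF7 over the 10 libraries were those of EFNA3 (Pearson r = 0.941), BTG1 (0.935), HES7 (0.921), MRPL14 (0.916) and SRSF3 (0.916), a description over libraries that share their groups.

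The closely related SRSF4, SRSF5 and SRSF6 had higher nascent values with THZ531. SRSF5 measured 131 and 129 in controls and 174 and 217 with THZ531 (log2 0.58 ± 0.21, adjusted p = 0.0687), and 114 and 146 with the combination. SRSF6 measured 188 and 187 in controls, 260 and 243 with THZ531 (log2 0.43 ± 0.19, adjusted p = 0.168), and 125 and 144 with Endovion (log2 -0.48 ± 0.20, adjusted p = 0.214). The THZ531 libraries lay above the controls for each of these genes, without passing the test.

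SRSF4 measured 104 and 89.9 nascent CPM in controls, 117 and 109 with SRPIN340, 157 and 115 with Endovion, 126 and 156 with THZ531, and 159 and 148 with the combination. All 8 treated libraries were above both controls. The difference passed the test with the combination (log2 0.66 ± 0.22, adjusted p = 0.0491), a call at the threshold that was lost in 14 of 18 alternative fits. Leaving out 1 library ended it for control replicates 1 and 2, THZ531 replicate 2, SRPIN340 replicates 1 and 2, Endovion replicate 1 and replicates 1 and 2 of the combination (adjusted p 0.0503 to 0.258). SRSF4 had 112 to 205 T>C reads per library.

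With Endovion, THZ531 and the combination more members passed the test in total RNA than in nascent RNA. The same held over all genes. In that order, 1680, 4509 and 4259 of 14689 were called in total RNA, and 265, 742 and 806 of 9946 in nascent RNA. SRSF1 and SRSF4 rose in total RNA with Endovion, THZ531 and the combination, while SRSF7, SRSF6 and SRSF2 fell with Endovion. Because each library pools the RNA of a culture, a smaller share of cells making a transcript and less of it in each cell cannot be told apart.

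SRSF1 (also known as ASF/SF2) is the founding member of the family and a splicing activator, with roles in nonsense-mediated decay and translation. Its total CPM values were 181 and 112 in controls, 233 and 277 with SRPIN340, 287 and 289 with Endovion, 255 and 322 with THZ531, and 275 and 286 with the combination. Every treated library exceeded both controls, which themselves differed by more than the libraries of any other group. Total SRSF1 rose with Endovion (log2 0.98 ± 0.20, adjusted p = 0.0130), THZ531 (log2 0.98 ± 0.20, adjusted p = 0.00422) and the combination (log2 0.94 ± 0.20, adjusted p = 0.00567). With SRPIN340 the log2 difference was 0.80 ± 0.20 (adjusted p = 0.0631). The call with Endovion was lost without Endovion replicate 1 (adjusted p = 0.102) or 2 (adjusted p = 0.1003). The interval that carries the SRSF1 reads overlaps another annotated gene on the same strand, and reads of the 2 genes there may be shared.

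Nascent SRSF1 stayed between 259 and 343 in all 10 libraries, with log2 differences from control of -0.12 to 0.10 and 95% intervals that together ran from -0.55 to 0.52. The labelled share, T>C reads over all reads of the gene, was 9.87% and 13.3% in the controls, 8.13% and 5.64% with SRPIN340, 5.24% and 6.08% with Endovion, 6.97% and 5.17% with THZ531, and 4.88% and 5.56% with the combination. No treated library reached the lower control, whose Wilson 95% interval was 9.08% to 10.7%, a range that covers counting error only. Over all genes, too, the share was higher in both control libraries (5.695% and 5.634%) than in any treated one (at most 5.632%).

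In the test of read class against treatment, the SRSF1 share fell relative to the other genes with SRPIN340 (log2 -0.73 ± 0.16, adjusted p = 0.0387), Endovion (log2 -0.93 ± 0.16, adjusted p = 0.00234), THZ531 (log2 -0.92 ± 0.16, adjusted p = 0.00242) and the combination (log2 -1.08 ± 0.16, adjusted p = 0.000258). It was the 1 member called in each of these comparisons, in which 0.131%, 0.362%, 0.221% and 0.774% of all genes were called lower. No member was called for the combination against THZ531 or for Endovion against SRPIN340, in both of which 0.0% of all genes were called, and none in the interaction (0.0101%). At an unadjusted p under 0.05 these comparisons had 1, 0 and 2 members, beside 4.98%, 3.45% and 6.08% of all genes, and DESeq2 called 0 in each. The control library with the higher share, replicate 2, was also the one with the lower SRSF1 total. Without it, which leaves 1 control library, the share was no longer called with SRPIN340 (log2 -0.47), Endovion (log2 -0.68) or THZ531 (log2 -0.66). The share remained called with the combination. Fewer of all genes were called with SRPIN340 and Endovion in that fit too, so these losses are not particular to SRSF1. Without control replicate 1, which leaves 1 control library, SRSF9 was called lower beside SRSF1 with Endovion, THZ531 and the combination. SRSF1 was then also called in the interaction. That fit called more of all genes in these comparisons too, so this is no result about the members.

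The share calls also depended on treated libraries. Without Endovion replicate 1 the fall of SRSF1 with Endovion had an adjusted p of 0.244, and without THZ531 replicate 2 that with THZ531 had 0.261. The call with SRPIN340 was lost without SRPIN340 replicate 2 (adjusted p = 0.647) and without either library of THZ531, Endovion or the combination (adjusted p 0.0536 to 0.105). Counted as conversions per 1000 covered T positions, SRSF1 measured 3.99 and 5.43 in controls and between 2.09 and 3.42 in the 8 treated libraries.

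**Figure D2:**
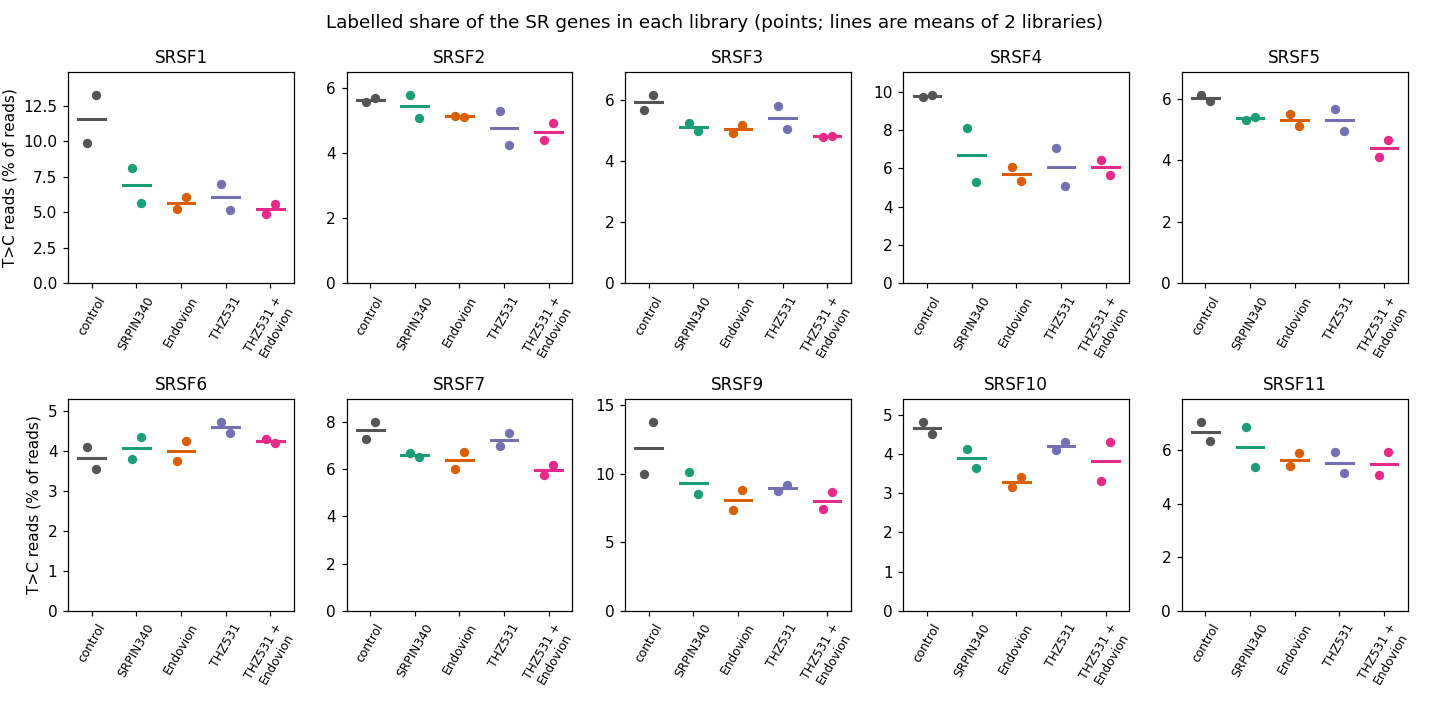
T>C reads as a percentage of all reads of the gene (linear axis from 0) for each SR gene in each of the 10 libraries. Points are libraries and lines the mean of the 2 libraries of a group. The SRSF1 controls at 9.87% and 13.3% lie above all 8 treated libraries, and so do both controls of SRSF4, SRSF5 and SRSF10. The share over all genes was also higher in both control libraries than in any treated one.

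SRSF4 was also higher in total RNA in every treated group. Its total CPM values were 59.1 and 47.8 in controls, 79.9 and 104 with SRPIN340, 129 and 111 with Endovion, 100.4 and 161 with THZ531, and 128 and 138 with the combination. All 8 treated libraries were above both controls. Total SRSF4 rose with Endovion (2.24-fold, log2 1.16 ± 0.22, adjusted p = 0.00955), THZ531 (2.44-fold, adjusted p = 0.00169) and the combination (2.49-fold, adjusted p = 0.00163), and with SRPIN340 the log2 difference was 0.78 ± 0.21 (adjusted p = 0.0894). The call with Endovion was lost without control replicate 2 (log2 0.97, adjusted p = 0.168) or Endovion replicate 1 (log2 1.06, adjusted p = 0.0787). Its labelled share was 9.72% and 9.86% in controls and 5.10% to 8.10% in treated libraries, with log2 differences of -0.54 to -0.67 that did not pass the test (adjusted p 0.198 to 0.488).

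SRSF9, the closest relative of SRSF1, had 228 and 161 total CPM in controls and 230 to 279 in all treated libraries. It rose with THZ531 (log2 0.44 ± 0.14, adjusted p = 0.0285) and the combination (log2 0.45 ± 0.14, adjusted p = 0.0265), calls that were lost without control replicate 2 (log2 0.17 in both, adjusted p 0.398 and 0.394), without replicate 1 of the combination (adjusted p 0.0541 and 0.130), for THZ531 without THZ531 replicate 2 (adjusted p = 0.261), and for the combination without its replicate 2 (adjusted p = 0.101). With Endovion the log2 difference was 0.40 ± 0.14 (adjusted p = 0.0804) and with SRPIN340 0.33 ± 0.14 (adjusted p = 0.219). SRSF9 lies on the strand opposite to GATC, with which its interval overlaps.

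Of the members that fell in total RNA, SRSF7 measured 523 and 430 in controls, 416 and 397 with SRPIN340, 313 and 337 with Endovion, 489 and 516 with THZ531, and 298 and 369 with the combination. It fell with Endovion (log2 -0.55 ± 0.12, adjusted p = 0.0113), with the combination (log2 -0.52 ± 0.12, adjusted p = 0.00588) and with the combination against THZ531 (log2 -0.59 ± 0.12, adjusted p = 0.0438), as did its nascent RNA. The first 2 calls were lost without control replicate 1 (adjusted p 0.0511 and 0.0512), and each without replicate 1 of its treated group (adjusted p 0.0944 and 0.0516). The last was lost without either library of THZ531, SRPIN340 or Endovion or replicate 1 of the combination (adjusted p 0.0661 to 0.447). Endovion and SRPIN340 differed by a log2 of -0.32 in total SRSF7, with a 95% interval of -0.64 to -0.01 and an adjusted p of 1.

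SRSF6 measured 255 and 276 total CPM in controls, 195 and 189 with SRPIN340, 166 and 174 with Endovion, 312 and 288 with THZ531, and 191 and 254 with the combination. The SRPIN340 and Endovion libraries lay below the controls and the THZ531 libraries above them. The fall with Endovion passed the test (log2 -0.64 ± 0.13, adjusted p = 0.00608) and was lost without Endovion replicate 1 (adjusted p = 0.0585), and with SRPIN340 the log2 difference was -0.46 ± 0.12 (adjusted p = 0.0618). SRSF2 measured 592 and 590 in controls, 439 and 455 with SRPIN340, 455 and 469 with Endovion, and 669 and 786 with THZ531. It fell with Endovion (log2 -0.36 ± 0.11, adjusted p = 0.0431) and rose with THZ531 (log2 0.30 ± 0.11, adjusted p = 0.0440). The fall was lost without either library of control, SRPIN340 or Endovion and without replicate 2 of the combination (adjusted p 0.0539 to 0.171). The rise was lost without either library of control or SRPIN340, without THZ531 replicate 2 or the combination's replicate 1 (adjusted p 0.06935 to 0.577).

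SRSF5 had 118 and 114 total CPM in controls, 121 and 126 with SRPIN340, 124 and 137 with Endovion, 175 and 232 with THZ531, and 144 and 167 with the combination. It rose 1.75-fold with THZ531 (log2 0.81 ± 0.13, adjusted p = 0.000405), a call kept under every alternative run, and 1.34-fold with the combination (log2 0.42 ± 0.13, adjusted p = 0.0252). The latter was lost without control replicate 2 (adjusted p = 0.149) and without replicate 1 (0.0575) or 2 (0.185) of the combination. The 2 single-treatment differences and that of the combination gave an interaction of -0.55 ± 0.19 in log2 for total SRSF5 (adjusted p = 0.276), and SRSF1 (-1.02) and SRSF4 (-1.14) also had an unadjusted p under 0.05 there.

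SRSF11, a divergent member of the family, had 239 and 194 total CPM in controls and 272 and 276 with the combination (log2 0.34 ± 0.12, adjusted p = 0.0374), a call lost without control replicate 2 (log2 0.15, adjusted p = 0.435) and without either library of THZ531, SRPIN340 or the combination (adjusted p 0.0576 to 0.177). SRSF3 (405 to 533 CPM in the 10 libraries) and SRSF10 (173 to 218), a factor known to repress splicing when dephosphorylated, passed no test of nascent RNA, total RNA or share at the level of the gene.

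Counted over the family, total RNA with Endovion had 2 members called higher and 3 lower, beside 8.9% and 2.54% of all 14689 genes tested. THZ531 had 5 called higher (16.6% of all genes) and none lower. The combination had 5 higher (16.6%) and 1 lower (12.4%). SRPIN340 had none by edgeR (1.96% in either direction), with 5 members at an unadjusted p under 0.05 (19.3% of all genes). DESeq2 called 4 members there, SRSF1 and SRSF4 higher and SRSF2 and SRSF6 lower, beside 6.19% of all genes. Under edgeR 3 were called without control replicate 1 (9.43% of all genes), 4 without THZ531 replicate 1 (3.13%) or 2 (3.34%), and 1 without replicate 1 of the combination (0.804%). For the combination against THZ531 SRSF7 was the 1 member called lower (0.184%), and none was called for Endovion against SRPIN340 (0.034%) or in the interaction (0.00681%), where 1 and 3 members had an unadjusted p under 0.05 (3.68% and 13% of all genes). DESeq2 called 0 and 2 in these comparisons, the latter SRSF1 and SRSF4 (1.32% of all genes), and edgeR called 2 in the interaction without control replicate 1 (4.55%) or THZ531 replicate 1 (2.04%). The number of members called with Endovion was 0 without Endovion replicate 1 and 3 without control replicate 2 or Endovion replicate 2. With THZ531 it was 3 without control replicate 2, THZ531 replicate 2 or replicate 1 of the combination, and with the combination it was 2 without that treatment's replicate 1.

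**Figure D3:**
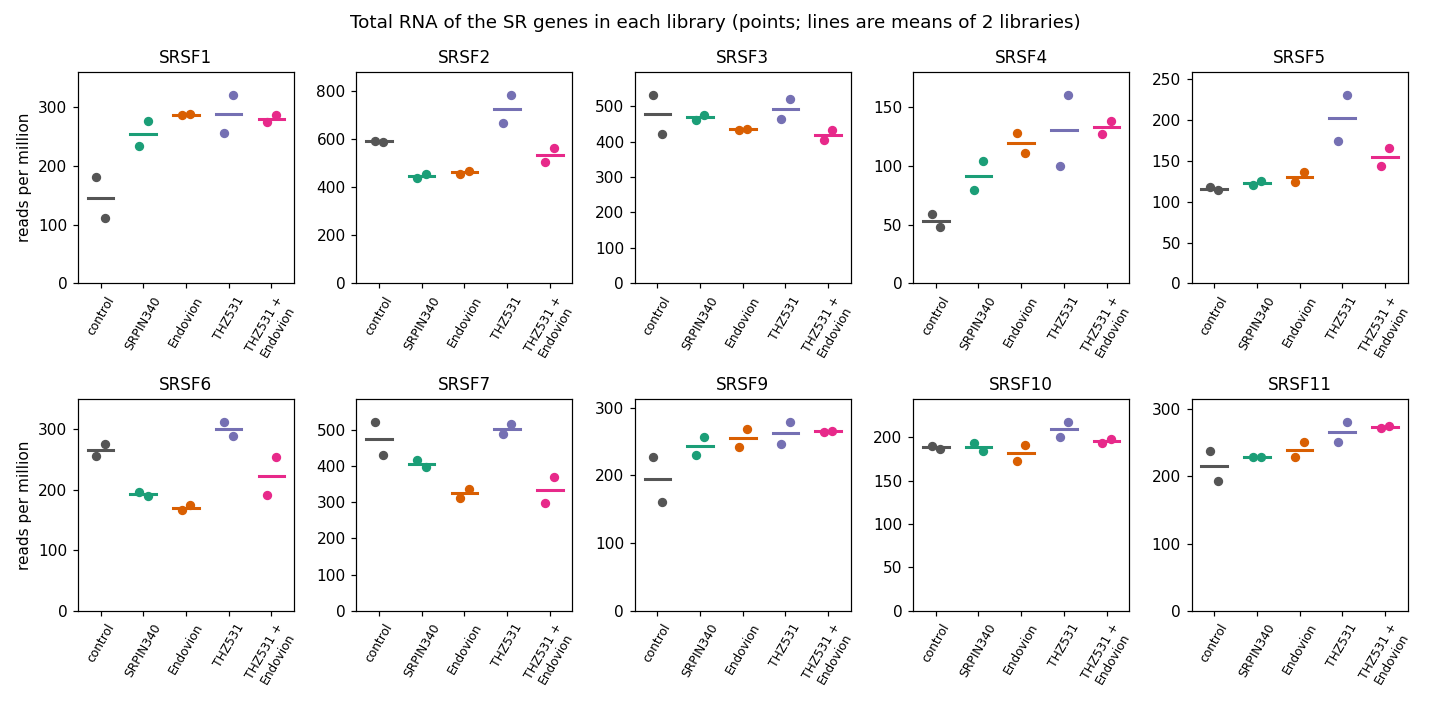
Read CPM (TMM-scaled, linear axis from 0) for each SR gene in each of the 10 libraries. Points are libraries and lines the mean of the 2 libraries of a group. All 8 treated libraries exceed both controls for SRSF1, SRSF4, SRSF5 and SRSF9, and SRSF6 and SRSF7 are lowest with Endovion or the combination. How many of all genes separate in this way was not counted.

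**Figure D4:**
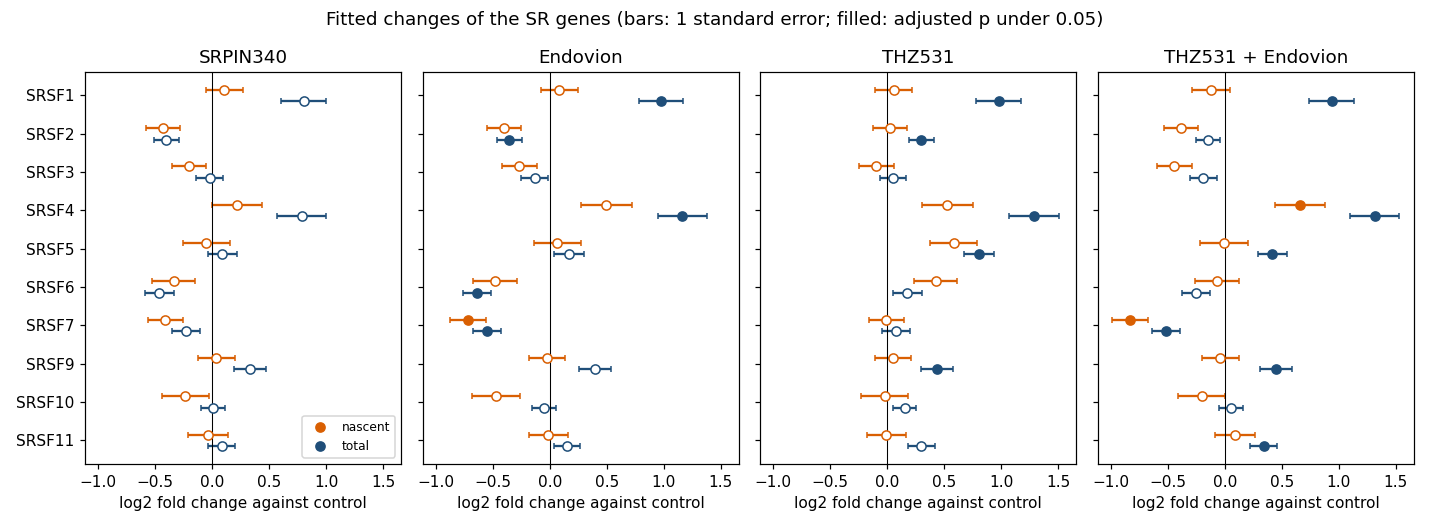
Fitted log2 fold changes against control for nascent RNA (orange) and total RNA (blue) of the 10 SR genes, 1 panel per treatment. Bars are 1 standard error and filled points have an adjusted p under 0.05. SRSF1 has a total change of 0.80 to 0.98 beside a nascent change of -0.12 to 0.10, and SRSF7 falls in both with Endovion.

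The members differed in their rate of T>C conversions, from which no unlabelled background was subtracted. In control cells SRSF4 and SRSF1 had 4.72 and 4.50 conversions per 1000 covered T positions, SRSF9 3.83, SRSF11 and SRSF7 2.69, SRSF5 2.39, SRSF3 2.21, SRSF10 2.07, SRSF2 1.87 and SRSF6 1.28, against a median of 2.34 over 9946 genes. SRSF4 stood at percentile 81.9 of all genes and SRSF6 at percentile 16. The control libraries of SRSF1 (3.99 and 5.43), SRSF4 (4.93 and 4.40) and SRSF9 (3.34 and 4.67) overlapped one another, so the order of these 3 is within their spread, and so is that of SRSF11 and SRSF7.

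Within genes, separate and nested 3′ intervals gave a finer view. The SRSF7 interval ends at the distal signal printed above, and its proximal 240 bases, which end at the proximal signal, held 69.6% ± 4.0 of SRSF7 reads in controls, 69.3% ± 1.7 with SRPIN340, 69.9% ± 0.84 with Endovion, 74.2% ± 1.3 with THZ531 and 68.9% ± 2.2 with the combination (SD, n = 2). Of the T>C reads, 83.8% ± 0.40 lay there in controls. The proximal interval on its own, tested among 22160 intervals with overlaps included, fell in nascent RNA with Endovion (log2 -0.69 ± 0.17, adjusted p = 0.00807, 3.08% of all intervals called) and with the combination (log2 -0.93 ± 0.17, adjusted p = 6.6e-05, 7.96% called).

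For SRSF10, the upstream interval at chr1:23969083-23971141 and the downstream interval at chr1:23964804-23967662 do not overlap. The upstream one held 16.9% and 20.4% of SRSF10 reads in controls, 21.1% and 22.6% with SRPIN340, 23.7% and 17.96% with Endovion, 24.0% and 26.7% with THZ531, and 29.1% and 23.8% with the combination. The SRPIN340, THZ531 and combination libraries lay above both controls, and those with Endovion overlapped them. Among 17458 intervals, total RNA of the upstream interval rose with THZ531 (log2 0.56 ± 0.16, adjusted p = 0.0115, 29.9% of all intervals called in either direction) and the combination (log2 0.51 ± 0.16, adjusted p = 0.0203, 27.8% called), while the downstream interval measured -0.01 ± 0.12 and -0.13 ± 0.12 (adjusted p 0.938 and 0.422). The difference between the 2 intervals was not tested. In nascent RNA the upstream interval measured 0.65 ± 0.36 with the combination (adjusted p = 0.297), on 17 to 65 T>C reads per library.

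In SRSF2 the proximal 582 bases of the 3′ UTR (SRSF2-205, chr17:76734577-76735158) held 26.1% and 26.4% of the gene's reads in controls and less in each treated library: 24.2% and 23.6% with SRPIN340, 20.5% and 21.7% with Endovion, 21.7% and 17.4% with THZ531, and 18.1% and 20.5% with the combination. They held more of the T>C reads, 46.9% ± 6.1 in controls. Tested among 36516 intervals, their total reads fell with SRPIN340 (log2 -0.57 ± 0.12, adjusted p = 0.0395, 1.22% of all intervals called), Endovion (log2 -0.70 ± 0.12, adjusted p = 0.00413, 8.98% called) and the combination (log2 -0.64 ± 0.12, adjusted p = 0.00156, 25.9% called). With THZ531 the value was -0.19 ± 0.12 (adjusted p = 0.271).

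The SRSF1 interval likewise holds a nested one, the 557 bases of the canonical transcript SRSF1-201 (chr17:58004849-58005405). It took 5.70% and 9.93% of SRSF1 reads in controls and 1.48% to 4.22% in treated libraries, on 81 to 292 reads. Its total fell with the combination (log2 -0.83 ± 0.26, adjusted p = 0.0256), whereas the whole interval rose in the same fit (log2 0.89 ± 0.19, adjusted p = 0.00741). In SRSF5, the 123-base interval SRSF5-209 (chr14:69769261-69769383), upstream of the main 3′ UTR, had 15 and 1 reads in controls, 28 and 26 with SRPIN340, 55 and 24 with Endovion, 43 and 41 with THZ531, and 57 and 30 with the combination. It rose with Endovion (log2 2.42 ± 0.65, adjusted p = 0.0281, 9.53% of the 17458 intervals called), THZ531 (log2 2.59 ± 0.65, adjusted p = 0.00676) and the combination (log2 2.71 ± 0.65, adjusted p = 0.00576), on counts this low.

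**Figure D5:**
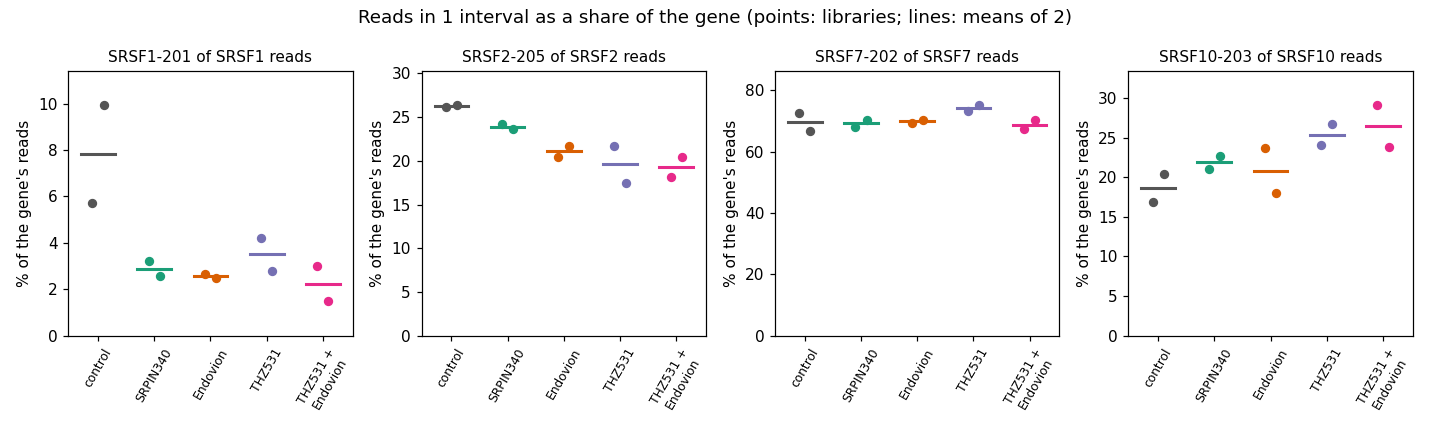
Reads in 1 interval as a percentage of all reads of its gene (linear axis from 0), per library (points) with the mean of the 2 libraries (lines), for SRSF1-201, SRSF2-205, SRSF7-202 and SRSF10-203. Both controls lie above all treated libraries for SRSF1-201 and SRSF2-205, and below the SRPIN340, THZ531 and combination libraries for SRSF10-203.

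Other genes of the SR pathway, a list of 36 that holds RS-domain proteins and splicing kinases, were called higher more often than lower in nascent and in total RNA. In nascent RNA 0 of the 34 tested were called with SRPIN340, 1 higher with Endovion (2.04% of all genes called higher), 5 higher with THZ531 (3.86%) and 3 higher with the combination (4.61%), with none lower. The list's median log2 difference was -0.02, 0.07, 0.34 and 0.34 in these comparisons. In total RNA 0, 6, 19 and 21 of the 35 tested were higher, beside 1.82%, 8.9%, 16.6% and 16.6% of all genes, and 1, SRSF8 with the combination, was lower (12.4% of all genes). In the labelled share the 1 gene called was TNPO3, the transportin that imports SR proteins, named here after its values were seen. Its share was lower with SRPIN340 (log2 -0.48 ± 0.11, adjusted p = 0.0495), Endovion (log2 -0.47 ± 0.11, adjusted p = 0.0367) and the combination (log2 -0.57 ± 0.11, adjusted p = 0.00393).

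LUC7L2, a U1 snRNP-associated factor, was the gene that rose in nascent RNA with Endovion (log2 1.21 ± 0.23, adjusted p = 0.000654), THZ531 (log2 1.37 ± 0.23, adjusted p = 6e-05) and the combination (log2 1.32 ± 0.23, adjusted p = 9.5e-05), from 146 and 92 T>C reads in controls, unscaled, to 184 to 281 in those 6 libraries. SON, a nuclear speckle scaffold, rose with THZ531 (log2 0.81 ± 0.17, adjusted p = 0.000997). SRRM1, a splicing coactivator, rose with THZ531 (log2 2.67 ± 0.58) and the combination (log2 2.15 ± 0.59) on 6 to 64 T>C reads per library, and RSRC2 with the combination (log2 1.09 ± 0.29, adjusted p = 0.00984). SRPK1 itself did not pass the test in nascent RNA (log2 0.32 to 0.46, adjusted p 0.351 to 0.725). Its total RNA rose with Endovion (log2 0.68 ± 0.19, adjusted p = 0.0347), THZ531 (log2 0.59 ± 0.19, adjusted p = 0.0289) and the combination (log2 0.74 ± 0.19, adjusted p = 0.0106). With SRPIN340 the difference was 0.66 ± 0.19 (adjusted p = 0.0824). The controls themselves differed, with 1403 and 719 unscaled SRPK1 reads among 27236009 and 23154132 reads on genes. The THZ531 libraries had 1560 and 1192. Whether the SRPK1 calls depend on 1 control library was not tested.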

How the data were processed

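22RV1 cells, 2 libraries in each of 5 groups, were measured by SLAM-seq with QuantSeq 3′ libraries, single-end reads of 101 bp. The authors mapped the reads with SLAM-DUNK to hg38 (version, settings and the use of molecular identifiers in counting are not given in the sources used here) and deposited unnormalized counts for 104653 intervals per library, of which reads, reads with a T>C conversion, conversions, and T positions covered were used. Samples were grouped by GEO's labels. Intervals were matched to GENCODE v44 (92826 of 96427 on main chromosomes). Where a gene's intervals overlapped, that with the highest read count stayed, and 57382 kept intervals were summed to 31015 genes. T>C reads, all reads and the labelled share (treatment by read class, library as a term) entered edgeR 4.0.16 under R 4.3.3 (TMM, filterByExpr, robust quasi-likelihood fit over all 10 libraries, 5 residual degrees of freedom). A call is a Benjamini-Hochberg adjusted p under 0.05 over all genes or intervals tested, 9946 genes for nascent RNA and share and 14689 for total RNA. Intervals of 95% on log2 differences use the fit's standard error. The procedure was tested on simulated data.

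Replicate libraries differed by more than counting noise (chi-square per degree of freedom 3.39 to 4.65). Counting intervals and depths of 1011591 to 1576102 T>C reads cover counting error only. Alternatives were DESeq2 1.42.0, other scalings, filters and interval sums, a replicate block, leaving out each library, and the limits of the study. The genes and lists were chosen with earlier results of these data known. Named genes are the 10 members, SRPK1, pathway genes called in nascent RNA with SRPIN340 or Endovion, up to 3 called per direction with the smallest p for the other treatments against control, and the 5 genes most like SRSF7 in nascent RNA. SRSF8 and TNPO3, outside this rule, were named after their values were seen. The sequences are from hg38. The T content of 34 of 34 SR intervals equalled hg38. One of the cell type markers is not reported here.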

Additional observations from a re-analysis of the deposited data

How the results depend on the processing

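The 25 calls of single SR genes kept their direction in all 433 alternative fits, and 335 of these kept the adjusted p under 0.05, while 98 lost it. Rises of total SRSF1 and SRSF4 with THZ531 and the combination, of total SRSF5 with THZ531 and the fall of nascent SRSF7 with the combination were kept in every one. The causes of the changes below were not tested.

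By the limits of the study (unadjusted p under 0.05 and a log2 change of at least 1), the nascent members called were 0 with Endovion, 0 with the combination and 0 for the combination against THZ531, the total members 1 with Endovion, 1 with THZ531, 1 with the combination, 0 for the combination against THZ531 and 2 in the interaction, and the share members 0 with SRPIN340, 0 with Endovion and 0 with THZ531. In the same order, these limits called 645, 1127 and 342 of all 9946 genes in nascent RNA. They called 1010, 2174, 2035, 297 and 755 of 14689 in total RNA, and 306, 358 and 441 of 9946 in the share. A plain sum of overlapping intervals, which counted 48.8% of T>C reads again, gave nascent calls of 0 with Endovion, 1 with the combination and 0 for the combination against THZ531, total calls of 3 with THZ531 and 0 for the combination against THZ531, and share calls of 0 with SRPIN340, 0 with Endovion, 0 with THZ531 and 0 with the combination. In the same order, the plain sum called 46, 273 and 0 of all 10736 genes in nascent RNA. It called 4162 and 13 of 15115 in total RNA, and 1, 1, 1 and 3 of 10736 in the share.

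DESeq2 gave total calls of 4 with SRPIN340, 2 for the combination against THZ531 and 2 in the interaction (909, 257 and 194 of all 14689 genes). Without the low-count filter the total calls were 4, 3 and 2 in the same comparisons (1211, 353 and 630 of 21171 genes). The nascent calls with the combination were then 1 (777 of 16618 genes). The share calls were 2 with THZ531 and 2 with the combination (121 and 207 of 16618 genes). RLE factors and scaling by all reads each left 1 nascent call with the combination (807 of 9946 and 774 of 10007 genes). The fit of 2 groups alone left 1 nascent call with the combination, 3 total calls with THZ531 and 0 for the combination against THZ531, and 0 share calls with SRPIN340. Its calls over all genes are not given here, so these counts have no background beside them. Scaling both read classes alike, an alternative chosen after seeing the data, left 0 share calls with SRPIN340 (6 of all 9946 genes). It put the median of all genes at -0.11 to -0.19 (log2) with SRPIN340, Endovion and the combination, against -0.02 to -0.01 with the scaling used. Scaling by all reads moved the nascent median with Endovion to -0.11.

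In nascent values, replicates of equal number did not deviate together (r = -0.07 to 0.06 between groups). Counting noise enters these correlations, so they cannot show whether such replicates shared a culture or batch. With the replicate block the total calls of the combination against THZ531 went from 1 to 0 and nascent calls of the combination from 2 to 3. No other count of called members changed. Over all genes, the block took the total calls with SRPIN340 from 288 to 96 of 14689. When every interval was tested on its own, overlaps included, the called SR intervals went from 1 to 3 in nascent RNA with Endovion, with the combination and for the combination against THZ531, and in total RNA from 0 to 1 with SRPIN340, from 6 to 11 with Endovion, from 6 to 11 with the combination and from 1 to 3 for the combination against THZ531. Overlapping intervals repeat reads, as SRSF7-201 and SRSF7-209 share their coordinates and SRSF7-202 is nested in them, so these counts are not of separate results. Of all intervals, 3.08% and 7.96% were called in nascent RNA with Endovion and the combination. In total RNA 1.22%, 8.98% and 25.9% were called with SRPIN340, Endovion and the combination.

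Leaving out 1 library at a time, nascent calls ranged from 0 to 1 with Endovion, 1 to 2 with the combination and 0 to 1 for the combination against THZ531. Total calls ranged from 0 to 4 with SRPIN340, 0 to 5 with Endovion, 3 to 5 with THZ531, 2 to 6 with the combination, 0 to 2 for the combination against THZ531 and 0 to 2 in the interaction. Share calls ranged from 0 to 1 with SRPIN340, 0 to 2 with Endovion, 0 to 2 with THZ531, 1 to 2 with the combination and 0 to 1 in the interaction. Calls over all genes moved as well. Without control replicate 2 fewer of all genes were called in nascent and total RNA with every treatment. Without control replicate 1 more were called in both with SRPIN340 and Endovion. The ranges are thus not particular to the SR genes. Nascent values rested on 1011591 or more T>C reads per library, and on 112 to 205 for SRSF4.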
